A study of Mus musculus with 6 samples.

Results

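The 10 genes described here encode the proteins that carry a Toll-like receptor signal inside the cell, namely the adaptors Myd88, Tirap and Ticam1, the kinases Irak1, Irak2, Irak3 and Irak4, the ubiquitin ligase Traf6, and the inhibitors Sigirr and Tollip. They were chosen by name, as adaptors, kinases and brakes of the pathway, and all 10 were among the 14709 named genes tested. Transcript levels were measured in colonic mucosa of C57BL/6 mice with a Tlr2 knockout and of wild-type C57BL/6 mice, both at 90 postnatal days, on 4 two-colour arrays that each held 1 knockout and 1 wild-type sample. Arrays are named by the number of the knockout sample, as pairs 1, 2, 4 and 5. The knockout sample carried Cy3 for pairs 1 and 2 and Cy5 for pairs 4 and 5. The labels used here give neither the sex of the mice nor whether the wild-type mice were littermates. No label says outright that each sample is a separate animal, so p-values measure the spread between these samples. The mucosa was scraped off with a microscope slide, so each sample holds epithelium together with other cells.

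Tlr2 is a cell-surface receptor for bacterial lipoproteins. As background, receptors of this family and of the interleukin 1 family share a cytoplasmic TIR domain, through which Tirap and Myd88 are recruited. Myd88 then assembles a complex of Irak4 with Irak1 or Irak2, which engages Traf6 and leads to activation of NF-kB and MAP kinases. Ticam1, also called TRIF, serves Tlr3 and endosomal Tlr4 instead and leads to interferon induction, while Irak3 (IRAK-M), Sigirr and Tollip restrain the pathway. Sigirr is known as a brake in colonic epithelium. The comparison asked whether the transcripts of these 10 genes differ in mucosa that lacks Tlr2.

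Stretches of sequence before the start of 4 member genes are shown, from RefSeq on GRCm38.p6, a build other than the mm9 named in the array headers, each holding the 250 bases upstream of the start, 5′ to 3′ on the gene's strand. The Myd88 promoter (chr9:119340019-119340268, minus strand) is shown because it was the only member promoter with a match to an interferon response element-like motif, GAAA, 2 bases of any kind and GAAA again, in capitals.
Myd88: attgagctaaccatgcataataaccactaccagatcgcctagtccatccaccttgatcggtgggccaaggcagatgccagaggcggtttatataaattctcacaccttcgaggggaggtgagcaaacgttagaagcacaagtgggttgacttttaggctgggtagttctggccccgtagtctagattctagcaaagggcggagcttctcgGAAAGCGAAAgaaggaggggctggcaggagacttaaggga
The Irak2 (chr6:113638217-113638466, plus strand) and Irak4 (chr15:94543410-94543659, plus strand) promoters belong to the members whose signal spanned the widest range over the arrays, and capitals mark a match to an NF-kB-like motif, GGG, 5 bases of any kind and CC. The Irak2 window holds no match on either strand. In Irak4 the match lies on the opposite strand, so its letters here read GG, 5 bases of any kind and CCC.
Irak2: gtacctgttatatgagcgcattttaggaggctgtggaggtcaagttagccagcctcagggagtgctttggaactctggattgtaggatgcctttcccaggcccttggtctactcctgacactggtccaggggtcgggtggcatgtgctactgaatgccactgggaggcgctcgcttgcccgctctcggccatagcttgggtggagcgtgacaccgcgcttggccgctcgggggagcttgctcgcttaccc
Irak4: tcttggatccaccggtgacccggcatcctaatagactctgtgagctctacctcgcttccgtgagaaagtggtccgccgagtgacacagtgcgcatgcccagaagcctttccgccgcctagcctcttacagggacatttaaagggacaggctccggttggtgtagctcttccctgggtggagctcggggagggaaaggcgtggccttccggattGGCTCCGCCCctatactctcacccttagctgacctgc
The Traf6 promoter (chr2:101678170-101678419, plus strand) was the only member promoter with CCCGGG, the SmaI and XmaI site on which the study's methylation assay rests, in capitals.
Traf6: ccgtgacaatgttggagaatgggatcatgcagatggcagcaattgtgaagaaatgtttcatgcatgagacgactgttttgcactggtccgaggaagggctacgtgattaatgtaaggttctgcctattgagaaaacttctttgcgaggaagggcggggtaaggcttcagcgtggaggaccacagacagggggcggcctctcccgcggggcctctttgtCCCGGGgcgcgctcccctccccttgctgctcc

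The table of promoters matched 9 members with 12 start sites, some of them overlapping, and Sigirr had no entry. Searched on both strands, the interferon motif was found in 1 of 12 member windows and in 2.98% of 32841 windows of the same length, CCCGGG in 1 of 12 and in 11.2%, and the NF-kB-like motif in 9 of 12, from 7 genes, and in 45.8%. In Myd88 the interferon motif began at position -40, counted from the start, and in Traf6 the SmaI site began at -32. The member windows had a median GC content of 59.6%, against 52.4% over all windows, and a median of 13.5 CpG dinucleotides, against 6. A match is a description of the letters and not a binding site, and no match says only that the letters are not in this window. The methylation probes carry a position and no gene name, and methylation at these genes was not analysed here.

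Tlr2 itself was checked first. Its normalised log2 signal was 7.06, 6.54, 6.87 and 7.70 in the knockout channel for pairs 1, 2, 4 and 5, against 11.47, 11.85, 12.37 and 11.90 in the wild-type channel. The channels did not overlap, and the mean log2 ratio of knockout over wild type was -4.86 ± 0.644 (SD, n = 4), with an adjusted p of 0.318 by limma with a dye term and 0.0274 without it. In the authors' deposited table the average Tlr2 ratio of knockout over wild type was 0.0116 on a linear scale, where 1 is no change. Across 14698 genes, which are not independent replicates, pair 1 correlated at -0.21, -0.42 and -0.11 with pairs 2, 4 and 5, whereas those 3 pairs correlated at 0.43 to 0.57 with each other. Each member is therefore given with its value without pair 1. Limma values without 1 array keep the dye term. The array then left alone in its dye orientation weighs as much as the remaining arrays together, unlike in a plain mean. Between 63.3% and 76.5% of 43379 spots were well above background per channel, and all 7 measured markers of colonic epithelium were above background on every array, with 6 of them saturated on at least 1.

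None of the 10 genes was called different in mucosa without Tlr2. At the threshold of 0.05 on limma's adjusted p, 0 of 10 members were called higher and 0 were called lower, against 0% of all genes in each direction. Likewise 0 members had an unadjusted p under 0.05, against 8.1% of genes. The submitters' criterion asks that 2 or more arrays pass 1.6-fold and that no array opposes them. It was met upward by 0 members and by 0.761% of genes, downward by 0 members and by 0.7% of genes, and in either direction by 1.46% of genes. Over all genes 112 were higher and 103 lower by that criterion, and with median centring in place of loess 45 were higher and 291 lower. No member met the criterion there either. The authors' deposited table lists 328 transcripts as higher and 277 as lower, from arrays with 41174 probes. Matched by gene name alone, 0 of the 10 members are among them. So small a part of the array is listed that 0 of 10 says little about the members. Member means lay between -0.24 and 0.25 on the log2 scale. In all 10 genes the signals of the knockout and wild-type channels overlapped, and the share of all genes with such overlap was not counted.

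**Figure D1:**
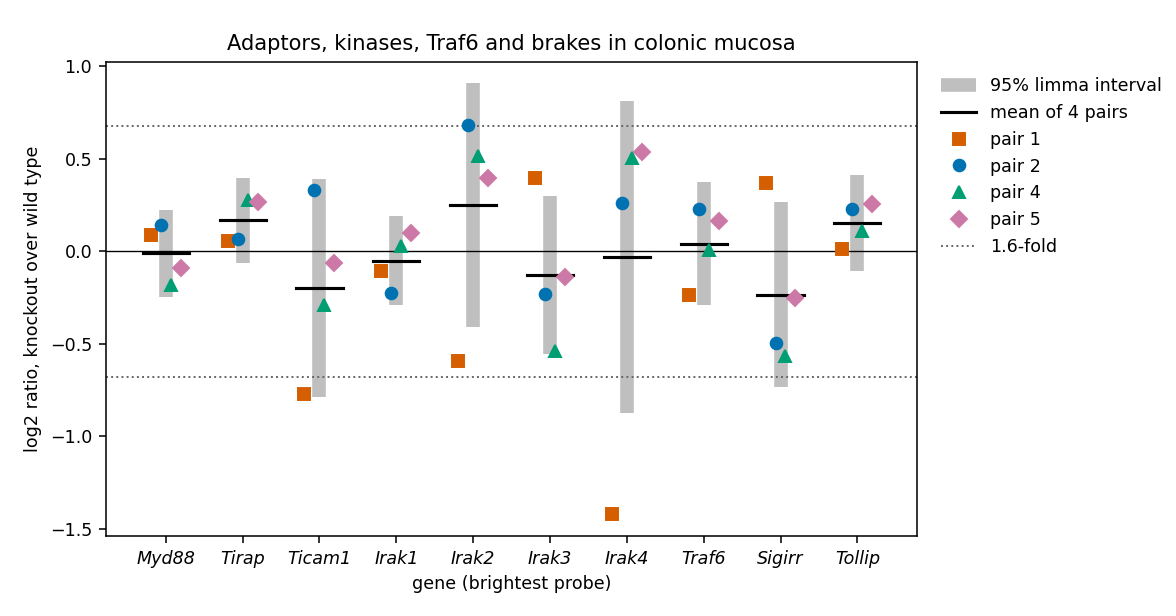
Log2 ratio of knockout over wild type (y axis) for the 10 genes (x axis) on the 4 arrays, with the mean as a bar and the 95% limma interval in grey. Pair 1 lies apart for Irak4, at -1.42, and on the other side of 0 from the other pairs for Irak2, Irak3, Irak4, Traf6 and Sigirr.

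The intervals show how large a difference the 4 arrays leave room for. The 95% interval lay within 1.6-fold either way for 6 of 10 members, against 71.9% of genes, and reached beyond it for Ticam1, Irak2, Irak4 and Sigirr. Taken pair by pair (1, 2, 4 and 5), the members' ratios had medians of -0.05, 0.18, 0.02 and 0.13, against medians over all genes tested of -0.03, -0.02, -0.0015 and 0.0046. Over the means, the members had a median of -0.02 and all genes one of -0.0084, and the median absolute mean was 0.14 and 0.12. Mucosa is a mixture of cells, so fewer cells of a type and less RNA per cell cannot be told apart in any of these values.

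Among the adaptors, Myd88, the adaptor of nearly all Toll-like and interleukin 1 receptors, had the steadiest signal. It read 11.64, 11.83, 11.61 and 11.71 in the knockout channel for pairs 1, 2, 4 and 5, against 11.55, 11.69, 11.79 and 11.80 in the wild-type channel. All 8 signals lay within 0.275 log2 units, and the knockout was above its wild-type partner for pairs 1 and 2 and below it for pairs 4 and 5, which is also the split by dye. The mean ratio was -0.01 ± 0.151 (SD, n = 4), with a 95% interval of 0.843-fold to 1.17-fold and an adjusted p of 0.984 by limma. Its 1 probe is printed 10 times on each array, and the SD over those spots was 0.025 to 0.0639 within an array. By Agilent processed signals the mean was 0.04, on the other side of 0, and without pair 1 the plain mean was -0.04 ± 0.166 (SD, n = 3). Refitted by limma with each array left out in turn, Myd88 ran over -0.03 to 0.01.

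Tirap, the sorting adaptor that bridges Tlr2 and Tlr4 to Myd88, read 10.17, 10.35, 10.47 and 10.69 in knockout mucosa for pairs 1, 2, 4 and 5, against 10.11, 10.28, 10.19 and 10.42 in wild-type mucosa. The knockout channel was the brighter one on all 4 arrays, by 0.06, 0.07, 0.28 and 0.27, while the groups overlapped. The larger ratios were those of the pairs with the knockout in Cy5. The mean was 0.17 ± 0.122 (log2, SD, n = 4), with an interval of -0.06 to 0.40 and an adjusted p of 0.654 by limma. The plain mean without pair 1 was 0.20 ± 0.119 (SD, n = 3), and the limma value stayed at 0.16 to 0.17 whichever array was left out. Tirap and Tollip were the 2 of 10 members with 1 direction on all 4 arrays, against 15.6% of genes.

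Ticam1, the adaptor that links Tlr3 and Tlr4 to interferon induction, varied more. Its signal was 10.51, 11.17, 10.68 and 10.74 in the knockout channel for pairs 1, 2, 4 and 5, against 11.28, 10.83, 10.97 and 10.80 in the wild-type channel. Pair 1 held both the lowest knockout and the highest wild-type signal, and only pair 2 was higher in the knockout. Its mean ratio was -0.20 ± 0.46 (SD, n = 4; adjusted p of 0.839 by limma), and without pair 1 the plain mean was -0.01 ± 0.314 (SD, n = 3). Left out in turn, the arrays gave limma values of -0.47 (without pair 2) to 0.08 (without pair 1). In the fit without pair 1, pair 2 alone weighed as much as pairs 4 and 5 together. The sign without pair 1 therefore depended on how the remaining pairs were weighted. The second Ticam1 probe had the same sign as the first on every array, at -0.72, 0.43, -0.32 and -0.22.

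**Figure D2:**
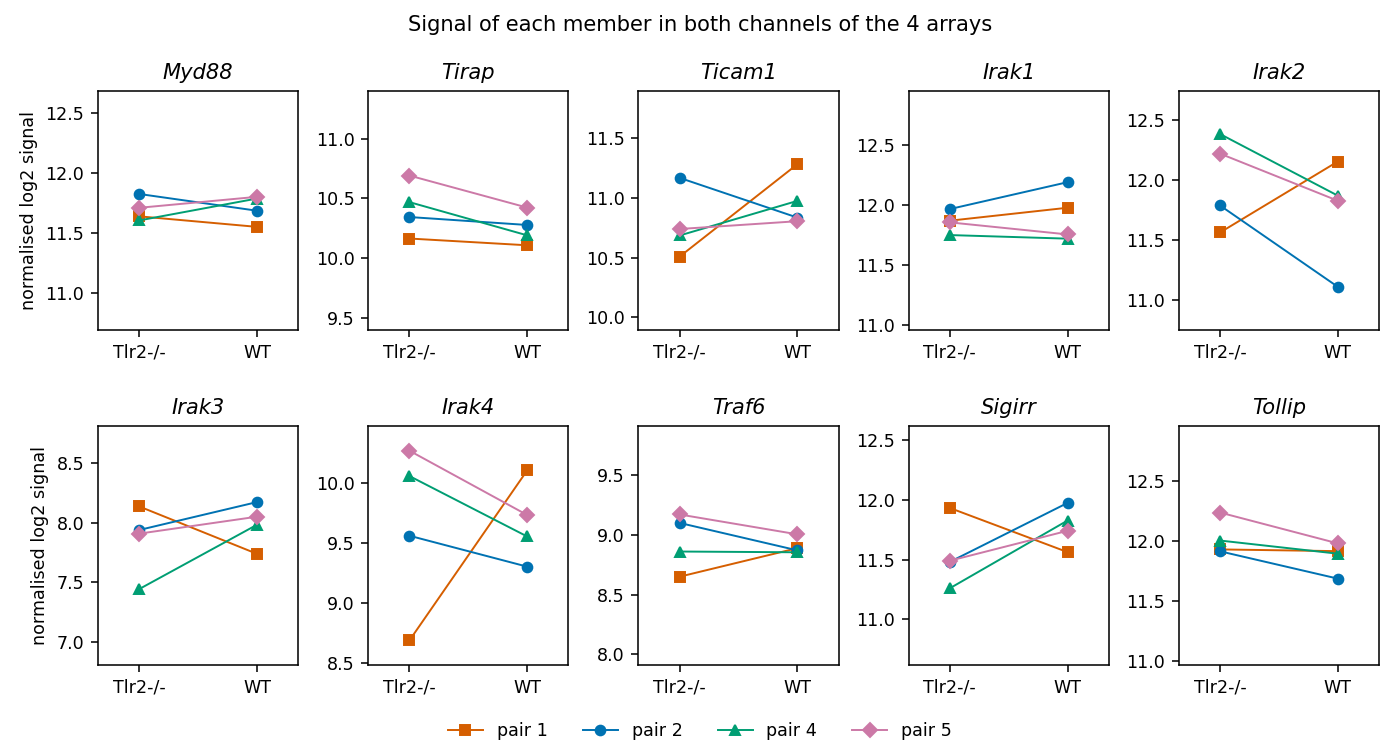
Normalised log2 signal (y axis, 2 units high in each panel) of the 10 genes in the Tlr2-/- and WT channel of each array, joined by a line per pair. Lines run nearly level for Myd88, Irak1 and Tollip, and the pair 1 line crosses all the others for Ticam1, Irak2, Irak3, Irak4 and Sigirr.

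Of the kinases, Irak1, which is recruited to Myd88 and passes the signal to Traf6, had the smallest spread between pairs. Knockout signals of 11.87, 11.97, 11.75 and 11.86 for pairs 1, 2, 4 and 5 stood against wild-type signals of 11.98, 12.19, 11.72 and 11.76. The knockout was lower in pairs 1 and 2 and higher in pairs 4 and 5, which is also the split by dye, and the groups overlapped. With a mean of -0.05 ± 0.145 (log2, SD, n = 4), the 95% interval was 0.819-fold to 1.14-fold and the adjusted p 0.913 by limma. Its plain mean without pair 1 was -0.03 ± 0.171 (SD, n = 3), and limma values without 1 array ran over -0.08 to -0.02. Its 3 probes did not run together for pair 1, at -0.11, -0.14 and -0.78, and had both signs on 3 of 4 arrays.

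Irak2, a kinase-like protein that sustains signalling through Traf6, had the largest mean of the 10 genes. It was at 11.56, 11.79, 12.38 and 12.22 in the knockout for pairs 1, 2, 4 and 5, against 12.15, 11.11, 11.87 and 11.83 in the wild type. The ratios were -0.59, 0.68, 0.51 and 0.39, so 3 pairs were higher in the knockout and pair 1 lower. The mean of 0.25 ± 0.573 (SD, n = 4) had an interval of -0.41 to 0.91 and an adjusted p of 0.812 by limma. Without pair 1 the plain mean was 0.53 ± 0.143 (SD, n = 3), and refitted by limma without pair 1 the adjusted p was 0.117, the smallest in that fit, which at least 1 other gene shared. The limma value was 0.57 without pair 1 and -0.07, on the other side of 0, without pair 2. In the latter fit pair 1 weighed as much as pairs 4 and 5 together.

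Irak3, an inhibitory member of the family known from monocytes and macrophages, gave dim signals. Its brightest probe read 8.13, 7.94, 7.44 and 7.91 in knockout mucosa for pairs 1, 2, 4 and 5, against 7.74, 8.17, 7.98 and 8.05 in wild-type mucosa. Pair 1 was higher in the knockout and the other 3 pairs lower, with a mean of -0.13 ± 0.389 (log2, SD, n = 4; adjusted p of 0.863 by limma). Without pair 1 the plain mean was -0.30 ± 0.207 (SD, n = 3; adjusted p of 0.275 by limma). The limma value was -0.29 without pair 1 and 0.03, on the other side of 0, without pair 2. In the latter fit pair 1 weighed as much as pairs 4 and 5 together. Over its other probes the means were -0.03 and -0.05, and 1 of them was well above background on 3 arrays in the knockout channel and on 2 in the wild-type channel. For such dim spots the offset added before logs draws ratios toward 0. Myeloid markers, of which 6 of 7 measured were above background throughout, had a median ratio of 0.13, -0.30, -0.04 and 0.04 for pairs 1, 2, 4 and 5, and their part in the Irak3 values was not tested.

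Irak4, the kinase that sits first in the complex with Myd88, had the widest spread. Its knockout signals were 8.69, 9.56, 10.06 and 10.27 for pairs 1, 2, 4 and 5, against wild-type signals of 10.11, 9.30, 9.56 and 9.74. In pair 1 the knockout was the lowest and the wild type the second highest of the 8 signals, and in the other 3 pairs the knockout was higher. Pair 1 thus stood at -1.42 and the remaining pairs at 0.26, 0.50 and 0.54, giving a mean of -0.03 ± 0.935 (SD, n = 4; adjusted p of 0.99 by limma). The mean was -0.58 over the pairs with the knockout in Cy3 and 0.52 over those with the knockout in Cy5. Within the Cy3 pairs, pair 1 was at -1.42 and pair 2 at 0.26. With so few arrays per orientation, a dye effect and an odd array cannot be told apart. Without pair 1 the plain mean was 0.43 ± 0.152 (SD, n = 3; adjusted p of 0.131 by limma). The limma value was 0.39 without pair 1 and -0.45 without pair 2, where pair 1 weighed as much as pairs 4 and 5 together. A second Irak4 probe gave the same signs, at -0.97, 0.25, 0.26 and 0.11.

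**Figure D3:**
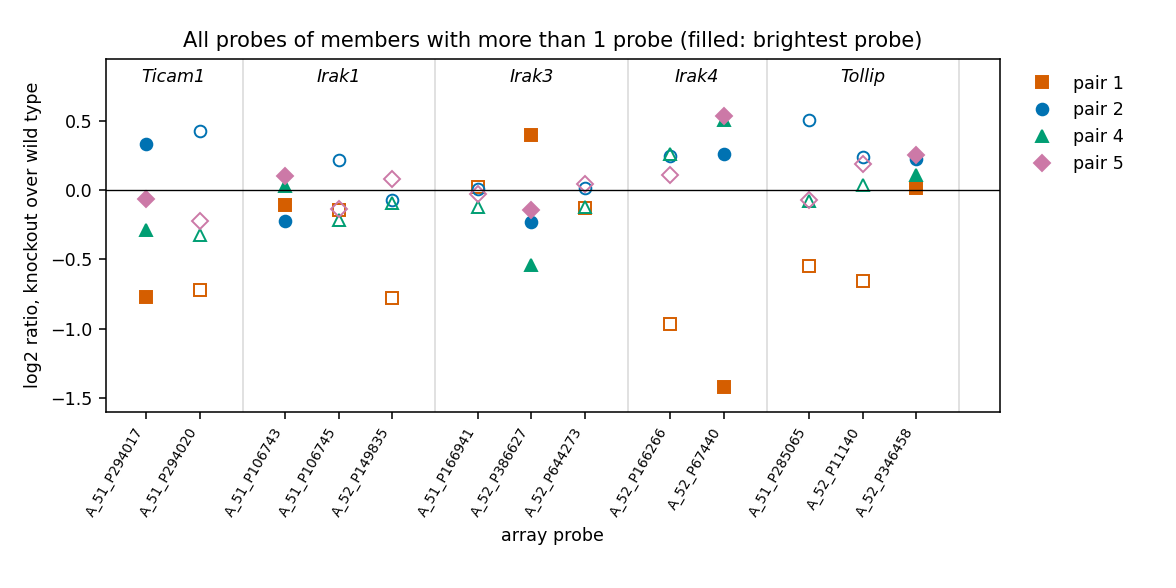
Log2 ratio of knockout over wild type (y axis) for every probe (x axis) of the 5 genes with more than 1 probe, with filled symbols for the brightest probe of each gene. Both Irak4 probes and both Ticam1 probes have the same sign on every array, while the Tollip probes differ for pair 1, at -0.55, -0.65 and 0.01.

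Traf6, the ubiquitin ligase on which the Irak complex converges, read 8.65, 9.10, 8.86 and 9.17 in the knockout channel for pairs 1, 2, 4 and 5, against 8.89, 8.87, 8.85 and 9.003 in the wild-type channel. The wild-type signals lay close together, and the knockout signals fell on both sides of them. The mean was 0.04 ± 0.208 (log2, SD, n = 4), the 95% interval 0.818-fold to 1.29-fold and the adjusted p 0.956 by limma. Leaving out pair 1 gave a plain mean of 0.13 ± 0.115 (SD, n = 3; adjusted p of 0.392 by limma). The sign turned without pair 2, where the limma value was -0.08, and with median centring in place of loess, where it was -0.04.

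Of the brakes, Sigirr, an orphan receptor of the interleukin 1 family that dampens Toll-like and interleukin 1 signalling, had a lower knockout signal in 3 of 4 pairs. It read 11.93, 11.48, 11.26 and 11.49 in knockout mucosa for pairs 1, 2, 4 and 5, against 11.56, 11.97, 11.83 and 11.74 in wild-type mucosa. Only the knockout of pair 1 lay among the wild-type signals. The ratios of 0.37, -0.49, -0.57 and -0.25 gave a mean of -0.24 ± 0.425 (SD, n = 4), an interval of -0.73 to 0.26 and an adjusted p of 0.765 by limma. Without pair 1 the plain mean was -0.44 ± 0.165 (SD, n = 3; adjusted p of 0.143 by limma). The limma value was -0.45 without pair 1 and -0.02 (adjusted p of 0.95) without pair 2, where pair 1 weighed as much as pairs 4 and 5 together. The size of the Sigirr difference thus rests on which array is left out and on how the others are weighted.

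Tollip, an adaptor-like inhibitor that binds Irak1 and takes part in endosomal sorting, read 11.93, 11.91, 12.004 and 12.24 in the knockout for pairs 1, 2, 4 and 5, against 11.92, 11.69, 11.89 and 11.98 in the wild type. The knockout channel was higher on every array, by 0.01 to 0.26. The mean was 0.15 ± 0.112 (log2, SD, n = 4), with an interval of 0.927-fold to 1.33-fold and an adjusted p of 0.705 by limma. Leaving out pair 1 gave a plain mean of 0.20 ± 0.0783 (SD, n = 3), and limma values without 1 array ran over 0.10 to 0.21. Both dimmer Tollip probes had a mean of -0.05, so the direction over all arrays rests on the probe used.

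Irak2, Irak3, Irak4, Traf6 and Sigirr had 1 direction in pairs 2, 4 and 5 and the opposite one in pair 1, which held for 5 of 10 members and for 32.2% of genes. Without pair 1, 7 of 10 members had 1 direction on the 3 remaining arrays, against 47.8% of genes. In limma refitted without pair 1, 0 members and 0% of genes were called, and Irak2, Irak4 and Sigirr had an unadjusted p under 0.05, so 3 of 10 members against 25.2% of genes. The submitters' criterion was then met by 0 members and by 6% of genes. On pair 1, 2 members were past 1.6-fold (Ticam1 and Irak4, both lower), on pair 2 it was 1 (Irak2, higher), and on pairs 4 and 5 it was 0, against 15.9%, 9.70%, 14.4% and 5.81% of genes on pairs 1, 2, 4 and 5.

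**Figure D4:**
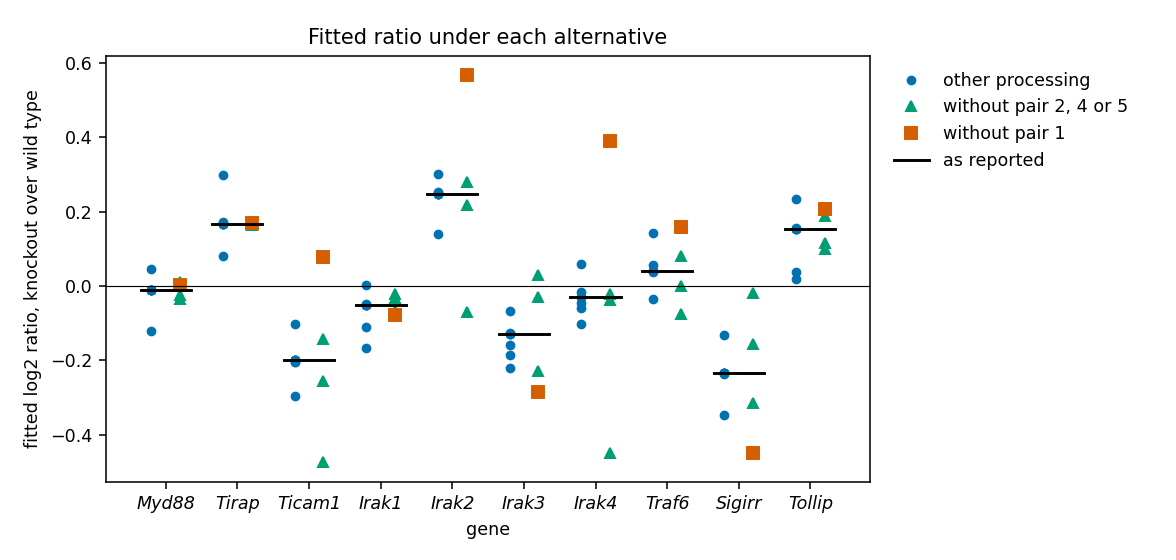
Fitted log2 ratio of knockout over wild type (y axis) for the 10 genes (x axis) under other processing, without each array in turn, and as reported. Leaving out pair 1 moved Irak4 to 0.39 and Irak2 to 0.57. In all alternatives run, values for Tirap and Tollip stayed above 0 and those for Sigirr below 0.

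Markers of other cells in the scraped mucosa also differed by pair. Smooth muscle markers, with 5 of 5 above background throughout, had a median ratio of -1.10, -0.07, -0.25 and 0.40 for pairs 1, 2, 4 and 5, and a summed log2 signal of 13.2 to 14.7 in knockout mucosa and 13.7 to 15.05 in wild-type mucosa. Fibroblast markers, again 5 of 5, had one of 0.56, -0.73, -0.64 and 0.04, and summed signals of 9.58 to 10.9 in knockout mucosa and 9.99 to 10.99 in wild-type mucosa. Adipocyte markers, of which 3 of 4 measured were above background throughout, were at -0.30, 0.04, 1.33 and 2.75, with sums of 9.46 to 14.2 in knockout mucosa and 9.64 to 11.5 in wild-type mucosa. T and NK cell markers, with 7 of 7 above background throughout, had medians below 0 in every pair, at -0.17, -0.58, -1.05 and -0.21, with sums of 9.98 to 10.52 in knockout mucosa and 10.6 to 11.1 in wild-type mucosa. Gzma and Gzmb, granzymes of cytotoxic lymphocytes, met the submitters' criterion downward, so 2 of 7 against 0.7% of genes. These 2 alone of the 7 had 1 direction on all 4 arrays, and 3 of 7 had pair 1 opposite to the other pairs. No gene of the other marker lists met the criterion. Epithelial markers, 6 of 7 of them saturated on at least 1 array, had medians of 0.34 and 0.47 for pairs 1 and 2, with the knockout in Cy3, and of -0.13 and -0.47 for pairs 4 and 5, with the knockout in Cy5. The medians of the list means were 0.10 for epithelium, -0.02 for myeloid cells, -0.34 for T and NK cells, -0.15 for B and plasma cells, -0.29 for smooth muscle, -0.21 for fibroblasts, 0.12 for endothelium, 0.84 for adipocytes and 0.27 for enteric neurons and glia. The part of these cells in the members' values was not tested.

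Around the 10 members, 5 lists of other pathway genes were followed, and 66 of 77 genes were measured. By limma 0 of 66 were called and 6 had an unadjusted p under 0.05, which is 9.09% and close to the 8.1% of all genes. By the submitters' criterion 2 were higher, or 3.03% against 0.761% of all genes, and 1, Tlr2, was lower. Among 12 receptors and co-receptors, the median mean ratio was -0.08, or -0.04 without Tlr2. Ly96, or MD-2, which holds endotoxin for Tlr4, was at 10.65, 9.87, 10.32 and 10.25 in knockout mucosa for pairs 1, 2, 4 and 5, against 10.69, 10.49, 10.998 and 10.99 in wild-type mucosa. Its ratio was below 0 on all 4 arrays, with a mean of -0.52 ± 0.322 (SD, n = 4; adjusted p of 0.595 by limma). Ly96 and Tlr2 were the 2 of 12 with 1 direction on all 4 arrays, against 15.6% of genes. Cd14, the co-receptor that hands endotoxin to MD-2, was at -0.66, -0.64, 0.05 and -0.74, so 3 of 4 pairs were lower (mean -0.50 ± 0.369; adjusted p of 0.595 by limma).

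In the signalling complex downstream of Traf6, 20 of 21 genes were measured, with a median of 0.02. Map2k4, a kinase that activates JNK, met the submitters' criterion upward, at 0.12, 0.78, 0.75 and 0.22 for pairs 1, 2, 4 and 5 (mean 0.47 ± 0.343, SD, n = 4; adjusted p of 0.616 by limma). Tab2, which binds the ubiquitin chains made by Traf6, had a mean of 0.23 ± 0.124 and Peli1, a ubiquitin ligase that acts on Irak proteins, one of 0.27 ± 0.27. In the Ticam1 arm, with 13 of 14 genes measured and a median of -0.02, Azi2, an adaptor of the kinase Tbk1, met the criterion upward at 0.36, 0.76, 1.22 and 0.66 (mean 0.75 ± 0.356, SD, n = 4; adjusted p of 0.595 by limma). Tbk1 itself, which phosphorylates Irf3, was at -0.11, 0.77, 0.86 and 0.52, and Ripk3, a kinase of necroptosis, had a mean of -0.21 ± 0.171.

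Further brakes, with 16 of 17 measured, had a median of 0.06, and 0 of them met the criterion. Tnfaip3, or A20, a deubiquitinase that ends NF-kB signalling, had positive ratios on all 4 arrays, at 0.19, 0.01, 0.54 and 0.90 (mean 0.41 ± 0.391; adjusted p of 0.595 by limma). It was the 1 of 16 with 1 direction on all 4 arrays, against 15.6% of genes. Cyld, another deubiquitinase, had a mean of 0.27 ± 0.46 and Nlrx1, a mitochondrial NLR protein, one of -0.34 ± 0.712, with -1.39 in pair 1. Without pair 1 the plain means were 0.48 for Cyld and 0.01 for Nlrx1. The 6 other Traf genes had a median of 0.09, with Traf7 at 0.18 ± 0.112, Traf3 at 0.11 ± 0.257 and Traf2 at 0.07 ± 0.064, and 0 of them met the criterion. For Traf3 the plain mean without pair 1 was 0.23.

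**Figure D5:**
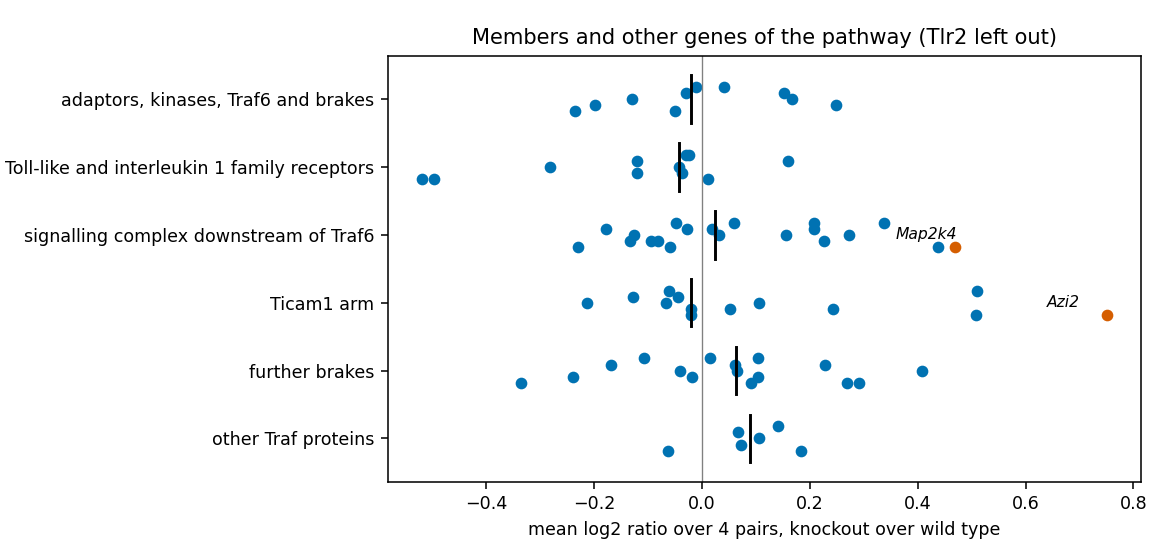
Mean log2 ratio of knockout over wild type over 4 pairs (x axis) for each member and each gene of the 5 lists (rows), with a black bar at the list median and genes meeting the submitters' criterion in orange. Azi2 and Map2k4 are the only orange points, and Tlr2, at -4.86, is left out.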

How the data were processed

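RNA of colonic mucosa from 4 Tlr2 knockout and 4 wild-type samples was hybridised in pairs, and groups, pair numbers and dyes were taken from the labels. The authors deposited spot intensity per channel, extracted with Agilent Feature Extraction (10.5.1.1 in the file headers, 8.5.1.1 by the submitters' processing notes). They also deposited tables of hits holding a knockout to wild-type ratio on a linear scale. No source used here states how those ratios were normalised.

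Median spot signals were corrected with normexp (offset 50) and then adjusted within each array by loess (limma 3.58.1, R 4.3.3). Control spots and outlier spots were left out, and spots of 1 probe averaged. Signals per channel were scaled between arrays by the Aquantile method. A probe was kept if at least 2 arrays showed it well above background in 1 genotype's channel, and each gene was represented by its brightest kept probe. The 18 member probes, 1 to 3 per gene, were matched by accession through a gene table of GRCm38.p6, and all were kept, with 0 saturated and 17 above background in both channels of all arrays. In all, 25111 of 41174 probes had a symbol, 14 of them only from the deposited tables, so a probe of a member under another accession would be missed.

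Ratios were tested with lmFit and eBayes, where the intercept took up the dye effect and the coefficient of dye orientation gave the knockout ratio. P-values were adjusted over 14709 genes (Benjamini-Hochberg, threshold 0.05). A separate fit over 30692 kept probes called 0, of which 1926 had an unadjusted p under 0.05. The members, the 5 pathway lists and the 9 marker lists were chosen with earlier results of these data known. Named genes are the 10 members, Tlr2, up to 3 genes of each pathway list (those meeting the submitters' criterion, then those of smallest p), and for the member of largest mean the 5 genes most like it. Tools were tested on simulated data. Alternatives changed the background correction, signal, normalisation, filter, probe choice, dye term and arrays used. With 4 arrays on 1 slide, their number limits the precision.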

Additional observations from a re-analysis of the deposited data

Results flagged for a closer look

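The Irak4 ratio of pair 1, -1.42, lay far below the other 3, which were 0.26, 0.50 and 0.54. Its gap to the nearest other value was 0.858 of the whole range, past Dixon's 95% limit for 4 values. Such a gap was found for 1 of 10 members and for 6.63% of all genes tested, and chance alone gives it in about 1 of 20 groups. The second Irak4 probe was also lowest in pair 1, at -0.97.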

How the results depend on the processing

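Under 12 alternatives to the fit, 0 of 10 members were called by limma in each, and 0 met the submitters' criterion in the 11 that change it. The smallest adjusted p over the 120 member values recomputed was 0.117, for Irak2 without pair 1, and over the alternatives the fitted Irak2 ratio ran from -0.07 to 0.57 and that of Irak4 from -0.45 to 0.39. Of the 120, 3 moved by more than the SD between arrays. Tirap moved to 0.30 with Agilent processed signals, and Tollip to 0.04 with median centring and 0.02 with the mean of its probes. In this fit no value with 1 array left out could move that far. Without the dye term, without the filter and with the strict filter, the fitted member values stayed as reported. The count of 3 is thus no measure of stability. Myd88, Ticam1, Irak1, Irak2, Irak3, Irak4 and Traf6 changed sign under at least 1 alternative. With 1 array left out, fitted values ran over -0.47 to 0.08 for Ticam1, -0.29 to 0.03 for Irak3, -0.08 to 0.16 for Traf6 and -0.45 to -0.02 for Sigirr, with the ends at pairs 1 and 2. The median of the members ran from -0.11 to 0.06. Over all genes, limma called 0, but 1 lower (Aadac) with an offset of 16, without background correction or with the strict filter, 1 lower (Tlr2) with processed signals or median centring, and 1 higher (Wdfy1) and 2 lower (Aadac and Tlr2) without the dye term. The criterion was met by 112 genes higher and 103 lower, by 290 and 267 with processed signals, by 45 and 291 with median centring, and by 93 to 389 higher and 82 to 493 lower when 1 array was left out, with the highest counts without pair 1. The cause was not tested. The tested ratios already pair the knockout and wild-type sample of an array. As a fit with a further replicate block, no paired analysis was possible because pair numbers are shared only with the methylation arrays, which were not analysed here. The number of arrays and, for Irak3, a dim signal limit these values.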

Other observations

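Irak2 had the largest mean of the members, and the genes most like it over the 4 log2 ratios, among 4179 genes with a similar spread, were Nfyc, Capns1, Plod1, Pcif1 and Axin1, each with a Pearson correlation above 0.99. With only 4 arrays such likeness is common, as 125 genes passed 0.99. Nfyc, a subunit of a CCAAT-binding factor, was at -1.15, 0.51, 0.31 and 0.16 for pairs 1, 2, 4 and 5, so it shared with Irak2 a low value in pair 1 and a high one in pair 2.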
